A study of Rattus norvegicus with 12 samples.

Results

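Mast cell genes were examined in rat lung with its bronchi after the airways had been dosed with 2,3-butanedione (diacetyl, DA). The set was chosen by gene name and held 10 names for mast cell tryptases, chymases, carboxypeptidase, the IgE receptor, the growth factor receptor Kit, histamine synthesis and the transcription factor Gata2. Of these 10 names, 9 stood on 1 line each of a table of 23096 genes: Tpsb2, Tpsab1, Cma1, Cpa3, Ms4a2, Fcer1a, Kit, Hdc and Gata2. The name Mcpt1 matched no line and was not analysed here. A gene table from RefSeq gives Mcpt1 also as a synonym of Mcpt1l1, a line that was present and is described with the related proteases.

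The study compared 6 DA libraries with 6 control libraries of male Sprague Dawley rats, per the labels, aged 8 weeks and weighing 300 g. Controls received aseptic distilled water through the trachea. DA rats received 125 mg/kg of DA by the same route once a day for 7 days, and lungs were taken 24 h after the last dose. Each library was taken as 1 rat, although the labels do not say so in words, so the p-values measure the spread between these libraries. Totals ran from 13723207 to 16271842 counts per library, and a count of 0 allows up to 3 counts, or 0.184 to 0.219 CPM (read counts relative to library size), which covers counting error only. The lung markers Sftpc, Sftpb, Sftpa1, Ager and Scgb1a1 summed to 21392 to 29363 CPM in control and 9985 to 35518 CPM in DA, lowest in DA replicate 4. All rats are labelled male, but the sum of the Y-linked genes Ddx3, Eif2s3y, Kdm5d, Uty and Usp9y was above 0 in only 6 libraries. These were control replicates 1 and 2 and DA replicates 1 to 4, with 3484 to 4533 counts each. The sum was 0 in the other 6 (control replicates 3 to 6, DA replicates 5 and 6). Ddx3y, with 1 to 9 counts in every library, was left out of this sum.

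Mast cells are long-lived tissue cells that sit around airways, vessels and nerves and store serine proteases, a carboxypeptidase and histamine in granules held together by the proteoglycan serglycin. IgE bound to the high-affinity receptor FcεRI on their surface triggers release of the granules when antigen cross-links it. Their growth and survival depend on the receptor Kit and its ligand, stem cell factor, and the transcription factors Gata2 and Mitf maintain their identity. In mice the tryptases and the chymase Cma1 are typical of mast cells of connective tissue, which in lung lie mainly around the large airways and the pleura.

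The regulator Gata2 binds DNA at GATA words, and the upstream sequence of members is shown because Gata2 is itself in the set. The windows are the 250 bases before the annotated start in RefSeq (build GRCr8), in the direction of transcription, while the submitters' notes name mRatBN7.2 for the counts. Of the 10 names, 9 had a window, and Ms4a2 had none. The words AGATAA (as in Cma1), TGATAA (as in Mcpt1), TGATAG (as in Cpa3) and, found in none of the 9 windows, AGATAG were sought on both strands and are in capitals. Cpa3 (chr2:104673238-104673487, minus strand) held 2 of them, starting 249 and 55 bases before the gene's start. Fcer1a (chr13:88224680-88224929, minus strand) held 1 at 93 bases and Cma1 (chr15:33390134-33390383, minus strand) 1 at 64 bases. The tryptase gene Tpsb2 (chr10:14886060-14886309, plus strand) held none in this window.
Cpa3: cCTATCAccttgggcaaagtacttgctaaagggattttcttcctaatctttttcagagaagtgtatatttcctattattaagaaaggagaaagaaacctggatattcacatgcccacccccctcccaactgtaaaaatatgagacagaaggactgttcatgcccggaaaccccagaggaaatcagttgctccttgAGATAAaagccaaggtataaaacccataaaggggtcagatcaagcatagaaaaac
Fcer1a: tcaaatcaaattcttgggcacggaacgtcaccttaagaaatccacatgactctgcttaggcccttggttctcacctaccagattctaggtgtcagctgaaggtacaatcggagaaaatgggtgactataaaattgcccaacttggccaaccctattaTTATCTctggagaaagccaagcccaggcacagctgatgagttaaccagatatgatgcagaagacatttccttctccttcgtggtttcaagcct
Cma1: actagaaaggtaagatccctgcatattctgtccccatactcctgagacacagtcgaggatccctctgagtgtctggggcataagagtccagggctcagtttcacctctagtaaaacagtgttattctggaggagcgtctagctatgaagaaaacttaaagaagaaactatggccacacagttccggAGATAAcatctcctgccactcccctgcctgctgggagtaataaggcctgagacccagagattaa
Tpsb2: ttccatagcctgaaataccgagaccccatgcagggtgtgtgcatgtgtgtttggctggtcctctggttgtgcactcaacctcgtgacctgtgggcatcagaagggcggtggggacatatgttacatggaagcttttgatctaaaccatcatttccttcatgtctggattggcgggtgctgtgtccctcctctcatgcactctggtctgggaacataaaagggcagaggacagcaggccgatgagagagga
At least 1 such word was found in 4 of the 9 windows (Cpa3, Fcer1a, Cma1 and Mcpt1), against 27.0% of 33469 windows of all genes. The words CACGTG and CACATG, which are E-boxes of the kind Mitf binds, were found on either strand in 3 of the 9 windows (Tpsb2, Cpa3 and Fcer1a), against 17.1% of all windows. Genes with a GATA word included both genes that were lower in DA (Cpa3, Fcer1a) and one that was not called (Cma1), so a word in this window stood in genes of both kinds.

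Most of the mast cell genes were lower in the DA lungs. By edgeR's quasi-likelihood test, adjusted over all 14517 genes tested, 6 of the 9 fell (Tpsb2, Cpa3, Ms4a2, Fcer1a, Gata2 and Kit) and 0 rose, at an adjusted p under 0.05. Over all genes 7.51% were called lower and 8.45% higher. The median log2 fold change of the 9 genes was -1.74, against 0.03 for all genes. At an unadjusted p under 0.05, 7 of the 9 were lower, against 14.9% of all genes, and 1, Hdc, was higher, against 18.7%. Whole tissue was sequenced, so fewer mast cells and less RNA per mast cell cannot be told apart. Other lung cells also use Kit and Gata2, and for these genes a change in those cells cannot be told apart either. In 4 genes (Tpsb2, Cpa3, Ms4a2 and Fcer1a) every DA library lay below every control library, which held for 2.93% of all genes tested.

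**Figure D1:**
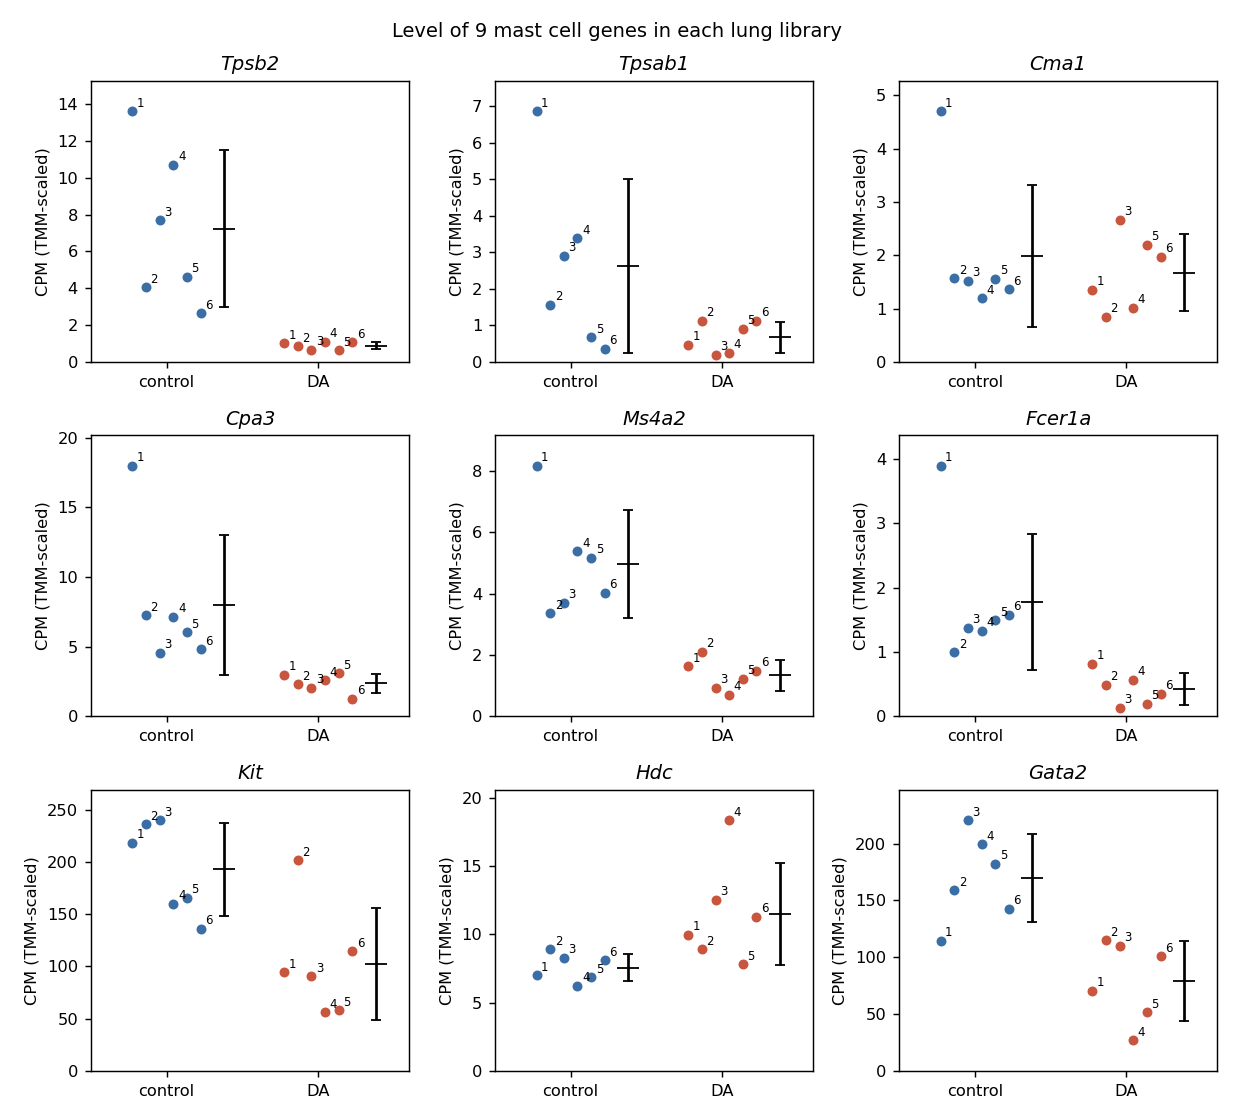
CPM (read counts relative to library size, scaled by the trimmed mean of M-values, TMM) of the 9 genes in each library, with the replicate number beside each point and the mean ± SD (n = 6) beside each group. DA libraries lie below all controls in Tpsb2, Cpa3, Ms4a2 and Fcer1a, and control replicate 1 is the highest library in 6 of the 9 genes.

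The tryptases are trypsin-like proteases stored as tetramers in the granule, and Tpsb2 showed the widest gap of the set. Tpsb2 (ENSRNOG00000018611) ranged from 2.66 to 13.6 CPM in control, with a median of 6.16, and from 0.646 to 1.08 CPM in DA, with a median of 0.931. The 6 DA libraries were close to each other and all below the lowest control, replicate 6. Tpsb2 fell by 3.02 ± 0.40 (SE) on the log2 scale (edgeR adjusted p = 0.00292), an 8.10-fold lower level, to 12.3% of the control mean. The fall kept its call without any single library, at log2 fold changes of -3.20 to -2.74. Tpsab1 (ENSRNOG00000024181), the other tryptase gene, ranged from 0.359 to 6.87 CPM in control (median 2.24) and from 0.200 to 1.13 CPM in DA (median 0.690). Its groups overlapped, because control replicates 5 and 6 lay among the DA libraries. The log2 fold change of Tpsab1, -1.95 ± 0.66, had an edgeR adjusted p of 0.0599 and no call. Leaving out control replicate 6 gave a call (adjusted p = 0.0427), as did DESeq2 (adjusted p = 0.0204). Leaving out control replicate 1, its highest library, gave a smaller fall of 1.39 ± 0.61 (edgeR adjusted p = 0.137). Nor was Tpsab1 called with the replicate block (edgeR adjusted p = 0.229) or in limma (adjusted p = 0.129). The log2 fold change of Tpsab1 was -3.03 among libraries with Y-linked reads and -0.85 among those without. The difference between these values was not called (interaction log2 -2.19 ± 1.28, edgeR adjusted p = 0.679). The 2 tryptase genes lie on the same chromosome and their sequences are much alike, and how the authors' counting treated reads that match both is not given in the sources used here, so the split of counts between them is uncertain.

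The carboxypeptidase gene Cpa3 (ENSRNOG00000011181), whose product is stored in a complex with the proteases and trims peptides such as venom toxins, ranged from 4.57 to 18.0 CPM in control (median 6.61). In DA it ranged from 1.27 to 3.10 CPM, with a median of 2.47. All DA libraries were below all controls, and control replicate 1 stood far above the other controls. Cpa3 fell by 1.74 ± 0.35 (SE) on the log2 scale (edgeR adjusted p = 0.0098), and by 1.33 ± 0.25 without control replicate 1 (adjusted p = 0.00804). The chymase gene Cma1 (ENSRNOG00000020563), which encodes a granule serine protease, gave no call. Cma1 ranged from 1.20 to 4.70 CPM in control (median 1.54) and from 0.843 to 2.66 CPM in DA (median 1.67), so the groups overlapped. The log2 fold change of Cma1, -0.25 ± 0.40 (normal-approximation 95% interval -1.03 to 0.54), was not called (edgeR adjusted p = 0.698). It was 0.20 ± 0.32 without control replicate 1 (adjusted p = 0.689). Counts behind these values were low, at 179 in the 6 controls and 150 in the 6 DA libraries.

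**Figure D2:**
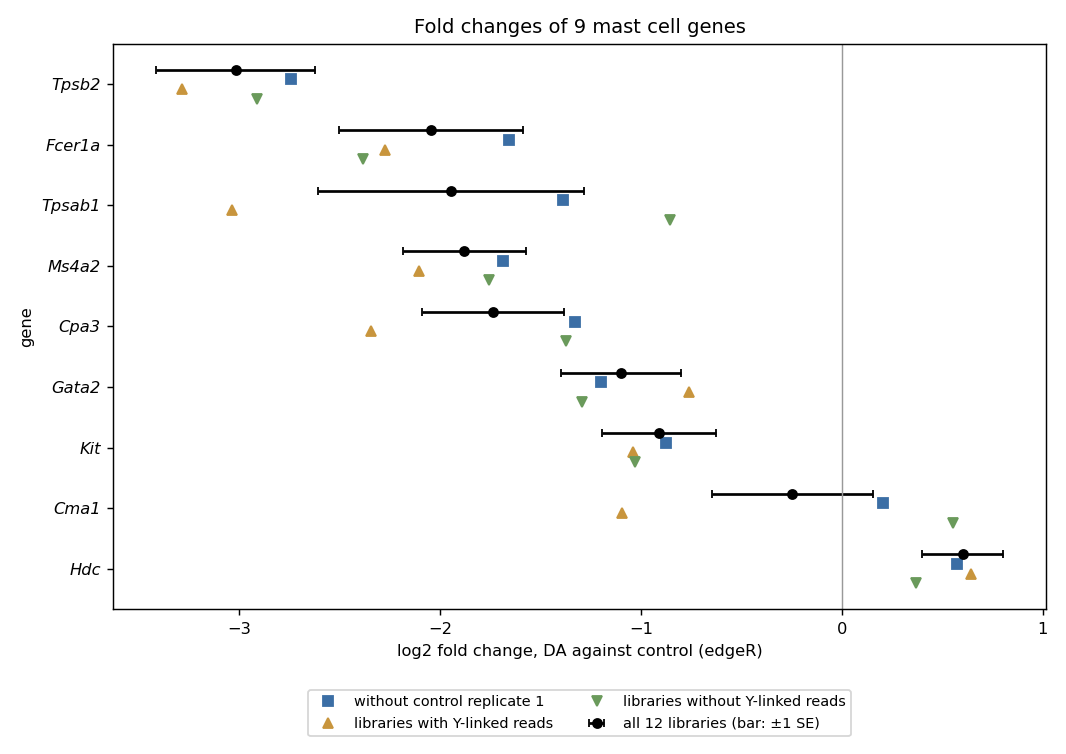
Log2 fold change of each gene, DA against control, from edgeR with all 12 libraries (black, bar 1 SE either side), without control replicate 1, and within the 6 libraries with or the 6 without Y-linked reads. Tpsb2 is lowest under each setting shown, and Cma1 changes sign between the settings, from -1.10 to 0.55.

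The IgE receptor is built from an α chain that binds IgE (Fcer1a), a β chain that amplifies the signal (Ms4a2) and a γ chain shared with other receptors (Fcer1g). Ms4a2 (ENSRNOG00000020993) ranged from 3.35 to 8.17 CPM in control (median 4.59) and from 0.701 to 2.11 CPM in DA (median 1.35). The 2 groups were apart, with DA replicate 2 the highest of the DA libraries. Ms4a2 fell by 1.88 ± 0.31 (edgeR adjusted p = 0.00445). Fcer1a (ENSRNOG00000009177) ranged from 0.998 to 3.90 CPM in control (median 1.44) and from 0.133 to 0.815 CPM in DA (median 0.422). Again no DA library reached a control, although DA replicate 3 held only 2 counts, or 0.131 CPM of its unscaled total, with an exact 95% binomial interval of 0.0159 to 0.474. Fcer1a fell by 2.05 ± 0.46 (edgeR adjusted p = 0.0142). Both chains kept their call without any single library, at log2 fold changes of -2.06 to -1.69 for Ms4a2 and -2.33 to -1.66 for Fcer1a. The γ chain gene Fcer1g, which macrophages and NK cells also use, was not called, at a log2 fold change of -0.32 ± 0.22 (adjusted p = 0.34). It ran from 103 to 193 CPM in control and from 67.0 to 176 CPM in DA. Basophils also carry Fcer1a and Ms4a2. Of 6 basophil marker names 2 were in the table, where Prss34, a basophil protease, had 0 counts in control and 1 in DA, and Il3ra, a receptor subunit that other cells also carry, gave no call, at a log2 fold change of 0.12 (adjusted p = 0.71).

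The receptor gene Kit and the transcription factor gene Gata2 were lower too, from far higher levels. Kit (ENSRNOG00000002227), the receptor for stem cell factor, ranged from 136 to 240 CPM in control (median 192) and from 56.2 to 202 CPM in DA (median 92.5). In DA, 5 of 6 libraries were below every control, and DA replicate 2 lay within the control range. Kit fell by 0.91 ± 0.29 (edgeR adjusted p = 0.0463). Dropping any one library other than DA replicate 2 ended that call (adjusted p = 0.0549 to 0.0926), and so did a term for Y-linked reads (0.0527). Gata2 (ENSRNOG00000012347) ranged from 114 to 221 CPM in control (median 171) and from 27.2 to 115 CPM in DA (median 85.6), with only DA replicate 2 above the lowest control, replicate 1. Gata2 fell by 1.10 ± 0.30 (edgeR adjusted p = 0.0288). Gata2 lost its call when control replicate 3, 4 or 5 was dropped (adjusted p = 0.0639, 0.0618 and 0.0541), when DA replicate 1 was dropped (0.0632) and with a term for Y-linked reads (0.0782). Both genes are also used by other lung cells, Gata2 by endothelium among them. Of 8 endothelial marker genes 1 fell and 0 rose, while over all genes tested 7.51% were called lower and 8.45% higher. Tek, the angiopoietin receptor gene, fell by 1.17 ± 0.31 (adjusted p = 0.0251). The other markers were not called, and their log2 fold changes went both ways. They were 0.80 for Emcn, 0.39 for Egfl7, 0.07 for Pecam1, -0.32 for Tie1, -0.45 for Cdh5, -0.56 for Kdr and -0.57 for Erg. Dropping control replicate 3 or 4 or DA replicate 1 ended the call for Tek (0.0506 to 0.0585), as did a term for Y-linked reads (0.0587). The 8 markers summed to 2464 to 3761 CPM in control and 990 to 3896 CPM in DA. DA replicate 4 was lowest in that sum, in Gata2 and in Kit. The part of these cells in the Gata2 and Kit results was not tested. Without DA replicate 4, Gata2 fell by 0.93 (adjusted p = 0.0147).

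Per gene length, Gata2 and Kit stood above the other 7 genes in control lungs, at 49.5 ± 11.2 and 25.4 ± 5.98 FPKM (counts relative to gene length and library total, SD, n = 6). Their ranges did not overlap each other or those of the other genes. Tpsb2 followed at 6.69 ± 3.94 FPKM and Cpa3 at 2.88 ± 1.81. Tpsab1 (2.14 ± 1.94), Cma1 (2.01 ± 1.35), Ms4a2 (1.94 ± 0.68) and Hdc (1.63 ± 0.23) were next, and the ranges of neighbours from Tpsb2 down to Hdc overlapped. Fcer1a was lowest, at 0.549 ± 0.325 FPKM. In DA the order was different among the granule genes. Hdc, at 2.51 ± 0.94 FPKM, and Cma1, at 1.70 ± 0.70, stood above Cpa3 (0.875 ± 0.266), Tpsb2 (0.829 ± 0.198), Tpsab1 (0.551 ± 0.332), Ms4a2 (0.527 ± 0.190) and Fcer1a (0.134 ± 0.082).

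**Figure D3:**
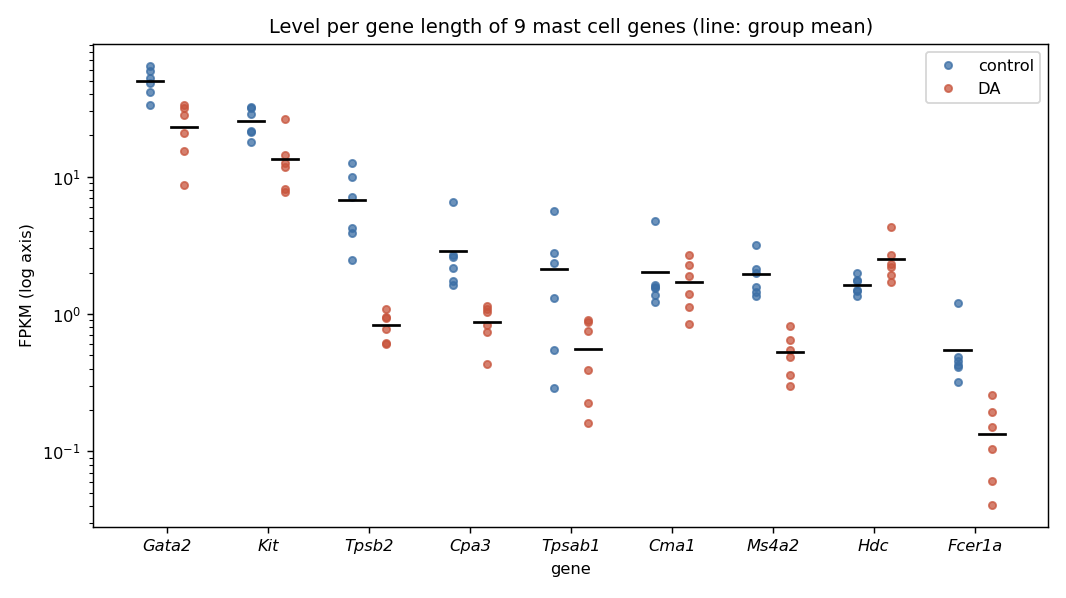
FPKM on a log axis, ordered by the control mean, with 1 point per library and a line at the group mean. Gata2 and Kit lie above the other genes in control, and in DA Hdc and Cma1 are the highest of the other 7.

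Histidine decarboxylase, encoded by Hdc (ENSRNOG00000010262), makes histamine and is active in mast cells, basophils and, when induced, in macrophages and neutrophils. Hdc ranged from 6.24 to 8.91 CPM in control (median 7.55) and from 7.81 to 18.4 CPM in DA (median 10.6). All 6 DA libraries lay above the control mean, DA replicate 4 highest, and only replicate 5 lay within the control range, while replicate 2 (8.92 CPM) was just above the highest control (8.91 CPM). The log2 fold change of Hdc, 0.60 ± 0.20, was not called (edgeR adjusted p = 0.0572). A call as higher appeared when DA replicate 2 was dropped (adjusted p = 0.0438), when DA replicate 5 was dropped (0.0349), under upper quartile scaling (0.0422) and by DESeq2 (0.0288). Other settings gave smaller values and no call. The log2 fold change was 0.41 ± 0.16 without DA replicate 4 (edgeR adjusted p = 0.083) and 0.51 with a term for Y-linked reads (0.148). It was 0.55 with the replicate block (0.128) and 0.37 among libraries without Y-linked reads (0.350).

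To ask whether pairs of these genes changed unequally, their log2 ratio was taken within each library for 5 pairs and compared by an exact two-sided permutation test over all assignments of the libraries, adjusted over the 5 pairs. The ratio of Hdc to Cpa3 was -1.35 to 0.84 in control and 1.30 to 3.02 in DA. These ranges did not overlap, and the mean was 2.11 higher in DA (exact permutation p = 0.00216, the smallest possible, adjusted p = 0.0108, higher in 6 of 6 DA libraries). Cpa3 alone already set the groups apart and Hdc went the other way, so this ratio gives no separate evidence of either change. The ratio of Tpsb2 to Tpsab1 was 1.22 lower in DA (exact permutation adjusted p = 0.0703), from 1.72 ± 0.66 to 0.49 ± 0.89 (SD, n = 6), and passed without DA replicate 4 (exact permutation adjusted p = 0.0216). That difference was -0.27 among libraries with Y-linked reads and -2.25 among those without, and the gap between these values was not tested. For the receptor chains the ratio of Fcer1a to Ms4a2 differed by 0.03 (exact permutation adjusted p = 0.935). The ratio was -1.91 to -1.04 in control and -2.05 to -0.24 in DA, so the test does not show that the chains changed equally. The ratio of Kit to Cpa3 was 0.55 higher (exact permutation adjusted p = 0.458) and that of Gata2 to Cpa3 0.34 higher (exact permutation adjusted p = 0.749), both within the spread between libraries.

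**Figure D4:**
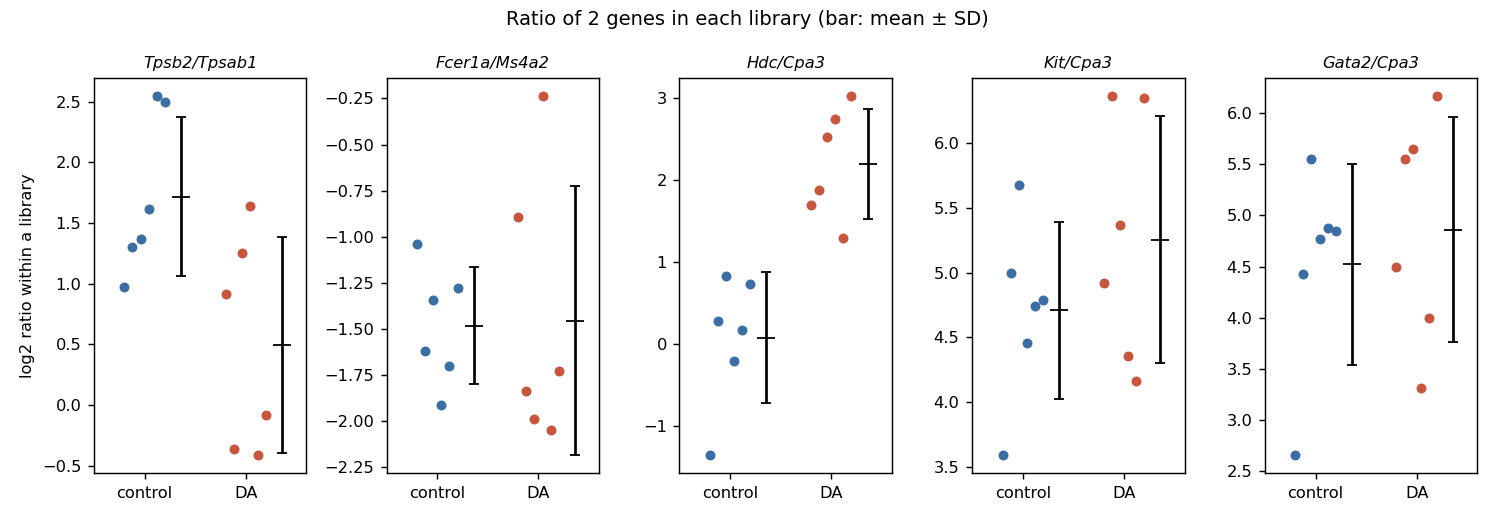
Log2 ratio of 2 genes within each library (TMM-scaled CPM, prior count 2), with mean ± SD of 6 libraries beside each group. The Hdc/Cpa3 ratio lies at 1.30 or more in every DA library and at 0.84 or less in every control, while the other 4 ratios overlap between groups.

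Deviations of the 9 genes from their group means show how they vary between rats given the same treatment. Over the 12 libraries, which share their depth and composition between genes, the tryptases went together (Pearson's r = 0.77, Spearman's rho = 0.73) and so did Kit and Gata2 (r = 0.67, rho = 0.60). Tpsab1 and Ms4a2 (r = 0.61, rho = 0.57) and the receptor chains Ms4a2 and Fcer1a (r = 0.55, rho = 0.52) also went together. Without control replicate 1 the r of these 2 pairs was 0.46 and 0.35. Ms4a2 and Hdc went opposite ways (r = -0.72, rho = -0.73), as did Cpa3 and Gata2 (r = -0.49, rho = -0.63). The pairs named here were picked from all pairs of the 9 genes. The r of Cpa3 with Ms4a2 was 0.42 over all libraries and 0.05 without control replicate 1. That library held 2.97 times the median of the other controls in Cpa3, 2.94 times in Tpsb2, 4.38 times in Tpsab1, 3.09 times in Cma1, 2.83 times in Fcer1a and 2.03 times in Ms4a2. In Gata2, by contrast, it was the lowest control, at 0.628 times. Among 13253 other named genes, the 6 most like Gata2 in these deviations were St3gal2, Nfe2l1, Tmtc1, Podxl, Mtmr3 and Rgs12 (r = 0.95 to 0.96). The 6 most like Cpa3 were Rrp15, Pigc, Stk16, Clns1a, Rfng and Wrap73 (r = 0.79 to 0.82), and without the 2 libraries farthest from the median of Cpa3 their r was 0.49 to 0.70.

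Genes around the mast cell were followed in 5 further lists, of which 59 of 70 names were in the table once and 43 were tested. Of these 43, 3 fell (Alox5ap, Gab2 and Stat5b) and 2 rose (Ptgs2 and Aldh7a1). Over all genes tested 7.51% were called lower and 8.45% higher, and neither count lay above its share. The same shares are the background for the counts of each list below. Among protease relatives 3 were tested and 0 were called. Lowest among them was Mcpt1l1 (ENSRNOG00000053494), a chymase-family gene, at 137 counts in control replicate 1, 9 to 32 in the other controls and 1 to 27 in DA. Its log2 fold change was -1.97 ± 0.76 (edgeR adjusted p = 0.0904), with a call by DESeq2 (0.0416) and when DA replicate 6 was dropped (0.0486). Without control replicate 1 its adjusted p was 0.268, and its log2 fold change was -3.45 among libraries with Y-linked reads and -0.24 among those without. Mcpt9, another member of the family, was at -0.83 ± 0.35 (adjusted p = 0.112). Ctsc, the protease that activates granule proteases in many leukocytes and the most abundant per length of the list, was at -0.09 (adjusted p = 0.693). Mcpt4 and Mcpt4l1 had 0 counts in every library. Chymase-family genes stand in a cluster of near copies, so their counts too may be split.

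Of 11 tested genes of granule storage and lipid mediators, 1 fell and 1 rose. Alox5ap, the partner of 5-lipoxygenase in leukotriene synthesis and a gene of myeloid cells in general, fell by 1.03 ± 0.28 (edgeR adjusted p = 0.0287). Dropping control replicate 3, 4 or 5 or DA replicate 1 or 6 ended the call for Alox5ap (adjusted p = 0.0519 to 0.0652), as did a term for Y-linked reads (0.0856). Neutrophil markers fell in 3 of 6 genes (Cxcr2, Csf3r and Mmp9), the last of which lost its call when any of 9 libraries was dropped (adjusted p up to 0.0820). Among libraries with Y-linked reads the log2 fold change was -0.55 for Cxcr2, -0.77 for Csf3r and 0.50 for Mmp9, and among those without it was -2.31, -2.18 and -3.05. The summed level of the 6 was 252 to 2321 CPM in control and 259 to 657 CPM in DA, and their part in the result for Alox5ap was not tested. The prostaglandin synthase gene Ptgs2, induced in many cell types, rose by 2.13 ± 0.53 (adjusted p = 0.0204). It reached 64.3 CPM in DA replicate 4, against 7.68 to 12.2 CPM in the other DA libraries and 3.12 to 6.09 CPM in control. Without DA replicate 4 Ptgs2 rose by 1.19 ± 0.21 (adjusted p = 0.00393), while its call was absent with a term for Y-linked reads (0.0767) and in limma (0.0527). DESeq2 gave no p-value for Ptgs2. The serglycin gene Srgn (-0.29 ± 0.18, adjusted p = 0.281) and the vesicular amine transporter gene Slc18a2, which loads histamine (-0.09 ± 0.18, adjusted p = 0.752), were not called.

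IgE receptor signalling genes, which most leukocytes share, gave 1 lower and 0 higher of 15 tested. Gab2, an adaptor for signals from Kit and FcεRI, fell by 0.65 ± 0.16 (edgeR adjusted p = 0.0185), and the most abundant per length, the kinase gene Lyn, was at -0.27 ± 0.13 (adjusted p = 0.159). Of 10 tested growth and lineage genes 1 fell and 0 rose. Stat5b, a transcription factor that acts downstream of Kit and many cytokine receptors, fell by 0.62 ± 0.09 (adjusted p = 0.00296). The Kit ligand gene Kitlg (-0.21 ± 0.25, adjusted p = 0.59), the IL-33 receptor gene Il1rl1 (-0.04 ± 0.17, adjusted p = 0.904) and Mitf (-0.20 ± 0.16, adjusted p = 0.417) were not called. The cytokine genes Il3, Il4, Il5, Il9 and Il13 were all below the count filter. Of 4 tested genes for histamine receptors and breakdown 0 fell and 1 rose: Aldh7a1, an aldehyde dehydrogenase gene, rose by 0.44 ± 0.14 (adjusted p = 0.047). Dropping any of 8 libraries (all controls except replicate 2, and DA replicates 1, 3 and 4) ended that call (0.0623 to 0.0989), as did a term for Y-linked reads (0.112), no filter (0.0596) and limma (0.0891). Aoc1, the gene of the diamine oxidase that degrades histamine, was at 1.36 ± 0.48 (adjusted p = 0.069).

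**Figure D5:**
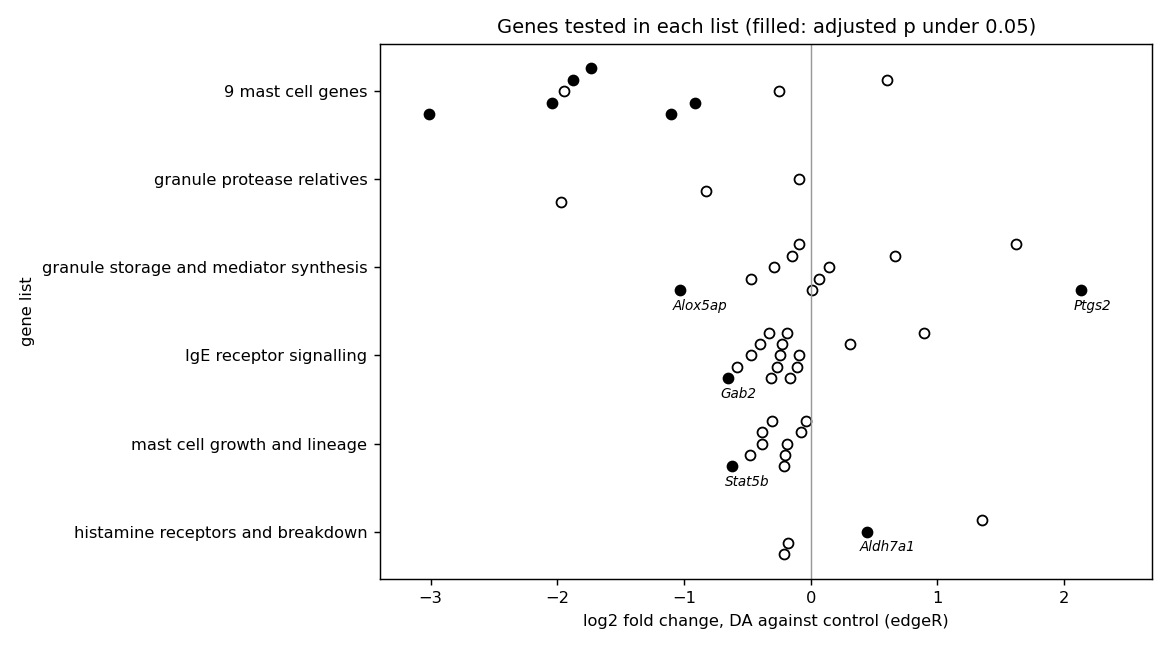
Log2 fold changes of the 9 mast cell genes and of 43 related genes in 5 lists, 1 point per gene tested, filled where the adjusted p was under 0.05. Called genes are 6 of 9 in the top row and 5 of 43 in the others. Over all genes tested 7.51% were called lower and 8.45% higher.

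A pair of genes below the count filter had few or no counts in DA, and both were chosen after their values were seen. Mrgprb3, a rat receptor of connective tissue mast cells for basic secretagogues, had 47, 17, 21, 15, 10 and 5 counts in control replicates 1 to 6 and 1 to 4 counts in DA. With no filter it fell by 2.78 on the log2 scale (edgeR adjusted p = 0.00963). The histamine receptor gene Hrh4, found on leukocytes including mast cells and eosinophils, had 3 to 10 counts in each control. It had 3 counts in DA replicate 4 and 0 in the other DA libraries, within the 3 counts that a count of 0 allows. Control replicates 2, 5 and 6 also held 3 counts each, so Hrh4 was near the floor in both groups. Eosinophils use many of the same signals. Of 7 eosinophil markers 2 were tested and 1 fell, the eotaxin receptor gene Ccr3 (-1.22 ± 0.32, adjusted p = 0.0239). Dropping DA replicate 1 ended the call for Ccr3 (0.0547), as did a term for Y-linked reads (0.0672) and limma (0.0997). The eosinophil peroxidase gene Epx had 6 to 10 counts per control library and 1 to 10 per DA library, near the floor in both groups. Other markers below the filter went both ways in total counts. Prg2 had 13 in control and 37 in DA and Ear1 1 and 6, while Il5ra had 27 and 12 and Prg3 5 and 0. The 7 markers summed to 14.9 to 33.3 CPM in control and 9.75 to 18.7 CPM in DA. Most of that sum was Alox15, at 11.0 to 30.5 CPM in control and 5.93 to 16.2 CPM in DA. Alox15 was not called (-0.56 ± 0.29, edgeR adjusted p = 0.192).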

How the data were processed

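Messenger RNA of lung with bronchi was sequenced on an Illumina instrument (6 control and 6 DA libraries). The tools named in the submitters' processing notes are HISAT2 2.2.1 and HTSeq 2.0.2, with the build mRatBN7.2. Roles of the tools, strand, annotation release and the handling of reads with several matches are not given in the sources used here. The authors deposited raw read counts per Ensembl gene, and FPKM, which equal counts per length and library total to a relative deviation of 7e-14. Groups and replicates followed the labels.

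Counts were tested with edgeR 4.0.16 (R 4.3.3): filterByExpr (14517 genes), TMM, the two-sided quasi-likelihood test on group alone, Benjamini-Hochberg over all genes, threshold 0.05. Standard errors are the log2 fold change over the root of F. The method was tested on simulated counts. Y-linked counts are the sum of Ddx3, Eif2s3y, Kdm5d, Uty and Usp9y, and Ddx3y (1 to 9 counts in every library) was left out of it after its values were seen. All members, lists and tests were chosen with earlier results of these data known. Named were all members, called genes and the most abundant gene of each related list, and the 6 genes most like Cpa3 and Gata2, and other genes were chosen after their values were seen. Alternatives were DESeq2 1.42.0, limma 3.58.1 on log2(FPKM + 0.5), upper quartile scaling, no filter, a replicate block, a term for Y-linked reads, the libraries with and those without Y-linked reads alone, and leaving out each library. The interaction of group with Y-linked reads was added after the data were seen.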

Additional observations from a re-analysis of the deposited data

Results flagged for a closer look

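Control replicate 1 stood apart from the other 5 controls in 3 mast cell genes, with a gap to the next library above the 95% critical value for 6 samples. It held 4.70 CPM of Cma1, 18.0 CPM of Cpa3 and 3.90 CPM of Fcer1a. DA replicate 4 stood apart in Ptgs2, at 64.3 CPM, and control replicate 2 in Aldh7a1, at 42.0 CPM. These were 5 flags over 38 groups of 6 libraries. Chance flags about 1 in 20 groups if they are independent and normally distributed. These groups share the same libraries, so that rate does not tell whether the number of flags is above chance. Mast cell genes called lower without control replicate 1 were Tpsb2, Cpa3, Ms4a2, Fcer1a and Gata2.

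Cma1 went opposite ways in libraries with and without Y-linked reads. With Y-linked reads all 4 DA libraries (0.843 to 2.66 CPM) were below the mean of the 2 controls (3.14 CPM, which rests on control replicate 1), and without such reads both DA libraries (mean 2.09 CPM) were above the mean of the 4 controls (1.41 CPM). The difference of the log2 fold changes was -1.65 ± 0.72, with an unadjusted p of 0.0416 and an edgeR adjusted p of 0.625.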

How the results depend on the processing

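The falls of Tpsb2, Cpa3, Ms4a2 and Fcer1a kept their call without each single library, by DESeq2, in limma, under upper quartile scaling, with no filter, with the replicate block and with Y-linked reads as a term. Among libraries without Y-linked reads Cpa3 was not called (adjusted p = 0.0766), and among those with them, 2 controls against 4 DA, 0 of all genes were called. All 9 genes passed the filter. The number of the 9 called lower was 4 to 6 when a library was left out, 0 with Y-linked reads alone, 4 without them or with the Y term, 5 under upper quartile scaling or with no filter, and 7 by DESeq2. The number called higher was 0 to 1 when a library was left out, and 1 under upper quartile scaling and by DESeq2 (Hdc). Kit was also not called with no filter (adjusted p = 0.0542), under upper quartile scaling (adjusted p = 0.0507) and among libraries without Y-linked reads (adjusted p = 0.0806).

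The labels do not say whether replicate numbers pair the rats. Deviations of same-numbered libraries correlated at -0.26 to 0.30, over 0.1 in 3 of 6 pairs. As 3 of 6 controls correlated best with their own number, these values do not settle whether the numbers pair the rats. With the replicate block 6 of the 9 were called lower, 677 of all genes higher and 1 related gene higher. Ptgs2 (adjusted p = 0.0642), Aldh7a1 (0.0889), Ccr3 (0.0582) and Mmp9 (0.201) were not called with the block.

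Of all genes, 1090 were lower and 1226 higher, and under upper quartile scaling 853 and 1662 (66.1% of calls higher, against 52.9%; median of all genes 0.08 against 0.03). Left-out libraries gave 578 to 1461 lower (lowest without DA replicate 1, highest without DA replicate 4) and 578 to 1558 higher (lowest without control replicate 4, highest without DA replicate 2). With Y-linked reads as a term 572 were lower and 549 higher, with such reads alone 0 and 0, without them 716 higher, and by DESeq2 1909 higher. Related genes numbered 3 lower and 2 higher, and 2 to 10 lower and 1 to 3 higher when a library was left out, the 10 without DA replicate 4. They were 5 and 1 with no filter, 6 and 1 without Y-linked reads, 0 and 0 with them, 5 and 0 in limma, 7 lower by DESeq2 and 0 higher with the Y term. The cause was not tested.

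The Hdc to Cpa3 ratio was 1.83 to 2.29 with a library left out, 2.74 (exact permutation adjusted p = 0.333) with Y-linked reads and 1.77 (adjusted p = 0.167) without, where so few assignments cannot reach the threshold. On log2(FPKM + 0.5) the Tpsb2 to Tpsab1 ratio was -1.20 (exact permutation adjusted p = 0.00722) and the Fcer1a to Ms4a2 ratio 0.54 (adjusted p = 0.00541), and the offset of 0.5 was near or above the mean FPKM of Fcer1a in both groups. With a library left out the former was -1.45 to -1.04, the latter -0.22 to 0.14, Kit to Cpa3 0.32 to 0.76 and Gata2 to Cpa3 -0.03 to 0.65. Depth limits Fcer1a, Tpsab1 and Cma1 most.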

Other observations

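Hpgds, the gene of a prostaglandin D2 synthase that mast cells and antigen-presenting cells use, was high in 1 library. DA replicate 4 had 477 counts (30.4 CPM), while the remaining DA libraries had 6 to 29 and the controls 10 to 60, and the gene was not called (log2 fold change 1.62 ± 1.05, edgeR adjusted p = 0.296). Mcpt1l2, a chymase-family name outside the lists, had 26 and 7 counts in control replicates 1 and 2, 0 to 2 in the other controls and 0 to 2 in DA. The serotonin synthesis gene Tph1, which rodent mast cells express, was below the filter, at 5 to 31 counts per control library and 3 to 10 per DA library.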
